A study of Mus musculus with 10 samples.

Results

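The hormone sensing luminal genes described here are 9 genes, Foxa1, Pgr, Prom1, Cited1, Tbx3, Ptger3, Myb, Stc2 and Xbp1. They were taken as the probe sets whose only gene symbol is one of these names, which gave 17 of the 3663 probe sets and 9 of the 2932 features tested, a feature being a named gene or a probe set without exactly 1 symbol. Xbp1, Myb and Stc2 had 3 probe sets each, Pgr and Tbx3 had 2, and the other 4 genes had 1. RNA was measured on Affymetrix GeneChip mouse arrays in mammary cells of virgin FVB females aged 6 to 8 weeks, after collagenase and hyaluronidase, dispase and trypsin. The labels give no treatment or transgene. The sort excluded cells with CD45, CD31, Ter119 or, in the study's methods, CD140α, and was run in 2 passes. The 5 populations had 2 arrays each, 10 in all. CD24medCD49f-/low and CD24highCD49fmed are luminal gates (4 arrays), while the basal gates (6 arrays) are CD24medCD49fmed and CD24medCD49fhigh, the latter split into a Thy-1+ and a Thy-1- fraction. The study's text has a CD24lowCD49fmed gate where the labels have CD24medCD49fmed, and neither says whether they are the same. Nothing states that the 2 arrays of a population came from separate mice, and p-values therefore reflect the spread among these samples alone, which may be technical.

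In the adult mammary gland, a subset of luminal cells carries the estrogen and progesterone receptors and responds to the ovarian hormones directly. These hormone sensing cells then signal to neighbouring luminal progenitor and basal cells through secreted factors. FOXA1 opens chromatin for the estrogen receptor, GATA3 and TBX3 act in luminal development, and CD133, the product of Prom1, is a surface protein used to sort hormone sensing luminal cells.

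The values are log2 intensities that were centred for each probe set, so 0 is a gene's mean over the 10 arrays. Only differences between arrays can be read from them, and neither abundance nor a ranking of one gene over another. The table held only probe sets with a 4-fold or wider range over the arrays, so each member had to vary. Because these are bulk samples, fewer cells of a type and less RNA per cell cannot be told apart. The sort genes were compared with the gates. Itga6, which encodes CD49f, was lower in the luminal arrays by 2.25 on the log2 scale (SE 0.32, limma adjusted p = 7.63e-06) and Thy1 by 1.32 (SE 0.39, adjusted p = 0.00533), while Cd24a was not among the features tested. Within the basal gates, Itga6 did not follow the CD49f levels of the sort. It was at 1.15 and 1.36 in CD24medCD49fmed, 1.17 and 0.43 in Thy-1+, and 0.64 and 0.65 in Thy-1-. Thy1 was at 2.59 and 0.58 in Thy-1+ and 0.23 and -0.54 in Thy-1-. In CD24medCD49fmed it was at 0.67 and -0.36, so Thy-1+ replicate 2 was below 1 array of that gate. All 12 basal markers, such as the keratins Krt14 and Krt17, were called lower in the luminal arrays, as were 1017 of the 2932 features. Of 12 luminal progenitor markers in the table, 10 were called higher, against 41.3% of features, and 2, Itgb3 and Sox10, lower.

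The promoters of the 4 members with the largest difference between luminal and basal arrays are shown, since these genes carry the main contrast. Each line is the RefSeq sequence of mouse build GRCm38.p6, 5′ to 3′, from 250 bases before to 50 bases after the annotated start, with all 4 genes on the minus strand. The Foxa1 stretch is chr12:57546062-57546361, that of Prom1 chr5:44101687-44101986 (1 of its 2 starts), that of Myb chr10:21160935-21161234 and that of Stc2 chr11:31370012-31370311. Capitals mark TGTTTAC, the core bound by forkhead factors such as FOXA1, and GGTCA, the unit that is repeated in the estrogen response element, on either strand.
Foxa1: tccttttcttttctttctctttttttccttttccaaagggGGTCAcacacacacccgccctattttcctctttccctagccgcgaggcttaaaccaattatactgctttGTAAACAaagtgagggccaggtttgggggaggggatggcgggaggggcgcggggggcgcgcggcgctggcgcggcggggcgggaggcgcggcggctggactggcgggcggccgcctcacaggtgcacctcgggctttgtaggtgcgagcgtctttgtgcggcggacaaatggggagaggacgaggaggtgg
Prom1: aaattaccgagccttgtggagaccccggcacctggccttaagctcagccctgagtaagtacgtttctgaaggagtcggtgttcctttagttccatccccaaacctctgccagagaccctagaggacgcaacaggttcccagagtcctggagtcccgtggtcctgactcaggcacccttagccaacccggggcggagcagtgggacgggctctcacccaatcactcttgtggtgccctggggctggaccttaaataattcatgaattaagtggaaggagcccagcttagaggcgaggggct
Myb: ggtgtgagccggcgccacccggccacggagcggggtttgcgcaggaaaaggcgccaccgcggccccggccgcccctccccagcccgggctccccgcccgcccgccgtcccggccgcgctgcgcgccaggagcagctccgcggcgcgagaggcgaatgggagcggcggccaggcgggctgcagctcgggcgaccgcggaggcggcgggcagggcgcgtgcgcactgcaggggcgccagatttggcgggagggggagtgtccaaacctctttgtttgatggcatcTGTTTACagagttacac
Stc2: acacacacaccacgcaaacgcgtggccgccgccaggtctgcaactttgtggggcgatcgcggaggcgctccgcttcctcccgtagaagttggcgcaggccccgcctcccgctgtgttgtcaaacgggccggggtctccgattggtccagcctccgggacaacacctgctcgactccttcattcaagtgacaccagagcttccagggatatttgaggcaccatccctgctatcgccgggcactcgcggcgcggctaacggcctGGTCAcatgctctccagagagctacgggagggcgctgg

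The forkhead letters, TGTTTAC on either strand, were found in 2 of the 11 promoters of the 8 members that had an entry (in Foxa1 at 141 bases before its start, on the reverse strand, and in Myb at 33 bases after its start), against 3.65% of the 32851 promoters in the table. The unit GGTCA lay in 5 of the 11, in Foxa1, Prom1, Cited1 and Stc2, against 40.5% of all promoters. In Prom1 it was at the start that is not printed. The full palindromic estrogen response element, which contains this unit, was in none of the 11 and in 0.07% of all. The TGTTCT unit of steroid receptor elements was in 1 of 11 against 19%, the T-box core AGGTGTGA in none against 1.28%, and the Myb core TAACGG in 1 (Stc2) against 2.76%. These are matches of letters in a window, and no binding was measured. Tbx3 had no entry.

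The first question was whether the 9 genes separate luminal from basal populations. Luminal arrays were higher for 6 of the 9, Foxa1, Prom1, Myb, Stc2, Pgr and Tbx3, by 0.96 to 3.25 on the log2 scale. In the test of the luminal against the basal populations (limma, Benjamini-Hochberg adjusted p under 0.05), these 6 were called higher and none lower, where 41.3% of all 2932 features were called higher. The members' median difference was 2.29 and that of all features 0.11. For the same 6 genes, all 4 luminal arrays were above all 6 basal arrays, which held for 23.8% of all features. These are means over a gene's probe sets, and by single probe sets the separation held for 10 of the 12 of these genes. The exceptions were 1 of Tbx3, with its lowest luminal array at 0.01 and its highest basal array at 0.37, and 1 of Stc2, at 0.62 and 0.71. Cited1, Ptger3 and Xbp1 were not called.

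**Figure D1:**
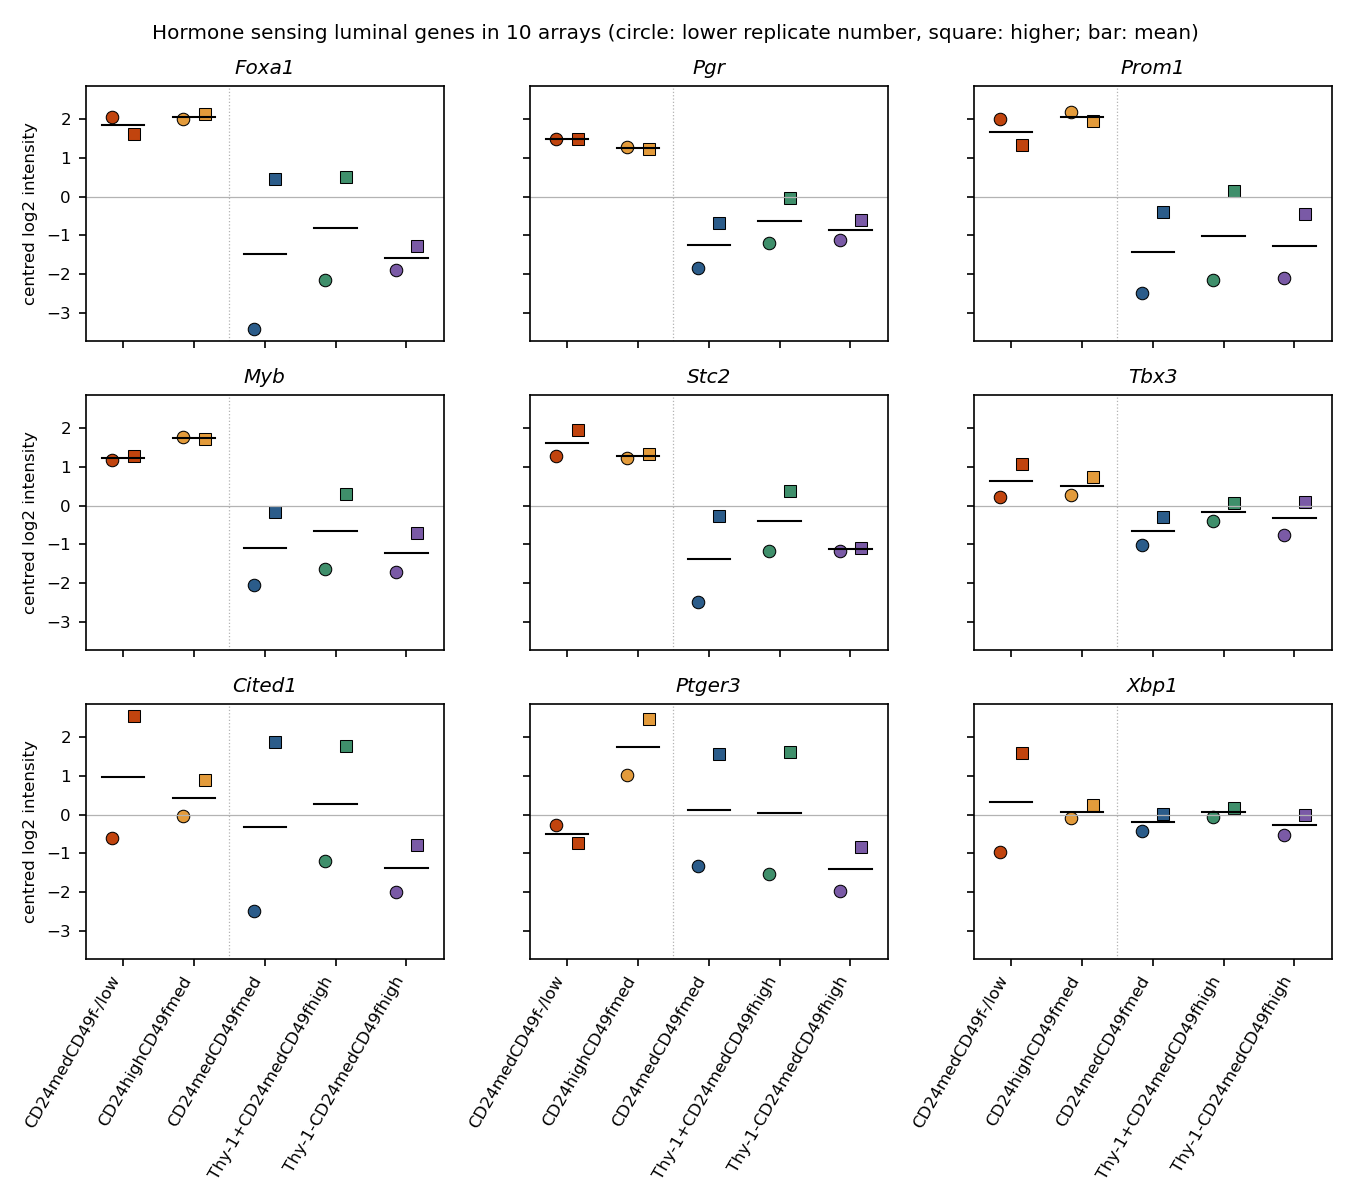
Centred log2 intensity (y axis) of the 9 members in each array, by population (x axis), with the lower replicate number as a circle, the higher as a square and the mean as a bar. The upper 6 panels have all 4 luminal arrays (left of the dotted line) above the 6 basal arrays, and in Cited1 and Ptger3 the squares of CD24medCD49fmed and Thy-1+CD24medCD49fhigh stand at 1.56 or above while their circles are at -1.20 or below.

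Pgr, the progesterone receptor, is the hormone receptor of the list. Its values were 1.486 and 1.497 in CD24medCD49f-/low, 1.29 and 1.22 in CD24highCD49fmed, -1.84 and -0.68 in CD24medCD49fmed, -1.21 and -0.03 in the Thy-1+ fraction, and -1.13 and -0.60 in the Thy-1- fraction. The luminal arrays were all above the basal ones. The luminal minus basal difference was 2.29 ± 0.35 (SE, 4 and 6 arrays), a 4.89-fold difference with limma adjusted p = 1.78e-05. The 2 probe sets of Pgr, tested alone, gave 2.03 and 2.55, and each had all luminal above all basal arrays. They ran opposite ways in CD24medCD49f-/low, at 0.96 and 1.89 in one and 2.02 and 1.10 in the other, and the luminal gates overlapped in each. The 3 basal populations overlapped each other. Esr1, the estrogen receptor α and the other of 10 hormone receptor genes in the table, was also higher in all luminal than in all basal arrays. It stood between 0.92 and 1.67 in the 4 luminal arrays and between -1.72 and 0.12 in the 6 basal arrays, with a difference of 2.10 ± 0.37 (limma adjusted p = 7.89e-05).

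Among the transcription regulators, Foxa1, the pioneer factor of the estrogen receptor, had the widest difference. It stood at 2.06 and 1.62 in CD24medCD49f-/low, 1.99 and 2.12 in CD24highCD49fmed, -3.43 and 0.45 in CD24medCD49fmed, -2.15 and 0.52 in the Thy-1+ fraction, and -1.90 and -1.29 in the Thy-1- fraction. The luminal arrays lay within a narrow band, whereas the basal arrays were spread over nearly 4 log2 units. The difference was 3.25 ± 0.56, or 9.52-fold (limma adjusted p = 5.97e-05), and it ranked 13th among all features. The luminal populations overlapped each other, as did neighbours among the basal populations.

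Myb, a transcription factor whose gene is a known estrogen target in breast cancer cells, followed Foxa1 closely. Its values were 1.18 and 1.28 in CD24medCD49f-/low, 1.77 and 1.73 in CD24highCD49fmed, -2.04 and -0.17 in CD24medCD49fmed, -1.64 and 0.31 in the Thy-1+ fraction, and -1.72 and -0.71 in the Thy-1- fraction. Both luminal gates were above every basal array. CD24highCD49fmed had the higher mean, but in 1 of the probe sets the arrays of the gates overlapped, at 1.72 and 1.15 in CD24medCD49f-/low and 1.68 and 1.61 in CD24highCD49fmed. The luminal minus basal difference was 2.49 ± 0.42 (limma adjusted p = 4.83e-05), and the 3 probe sets gave 2.19, 2.57 and 2.70.

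Tbx3, a T-box factor required for mammary development, had a smaller difference. It was at 0.22 and 1.07 in CD24medCD49f-/low, 0.27 and 0.74 in CD24highCD49fmed, -1.01 and -0.30 in CD24medCD49fmed, -0.41 and 0.08 in the Thy-1+ fraction, and -0.76 and 0.10 in the Thy-1- fraction. The lowest luminal array, at 0.22, was just above the highest basal array, at 0.10. The difference was 0.96 ± 0.35, or 1.94-fold (limma adjusted p = 0.0172). The call was lost when any of 3 arrays was left out. The adjusted p was 0.0848 without CD24highCD49fmed replicate 2, 0.0551 without CD24medCD49fmed replicate 2 and 0.0529 without Thy-1- replicate 1. Its 2 probe sets gave 0.85 and 1.07, and the first carries the suffix that Affymetrix uses for probes that may match other transcripts, as does 1 of the 3 of Myb.

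Cited1, a transcriptional co-regulator that can act with the estrogen receptor, was not called, and its luminal and basal arrays overlapped. Its values were -0.59 and 2.56 in CD24medCD49f-/low, -0.04 and 0.89 in CD24highCD49fmed, -2.49 and 1.87 in CD24medCD49fmed, -1.20 and 1.78 in the Thy-1+ fraction, and -1.98 and -0.79 in the Thy-1- fraction. The spread within 3 populations was wider than the difference between any luminal and basal mean, and each population overlapped the next in order. The difference was 1.18 ± 0.70 (95% interval -0.27 to 2.62, limma adjusted p = 0.125). It was called without CD24medCD49f-/low replicate 1 (1.96, adjusted p = 0.0121) and without CD24medCD49fmed replicate 3 (1.90, adjusted p = 0.00288).

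Xbp1, a transcription factor of the unfolded protein response, varied mainly between the arrays of CD24medCD49f-/low. It was at -0.96 and 1.60 there, -0.08 and 0.24 in CD24highCD49fmed, -0.42 and 0.02 in CD24medCD49fmed, -0.05 and 0.18 in the Thy-1+ fraction, and -0.53 and -0.01 in the Thy-1- fraction. These 2 arrays were the lowest and the highest of the 10, and the other 8 lay between them. The luminal minus basal difference was 0.34 ± 0.41 (95% interval -0.51 to 1.18, limma adjusted p = 0.446). It was 0.98 and called without CD24medCD49f-/low replicate 1 (adjusted p = 0.01005), and -0.30 without replicate 2 (adjusted p = 0.369). All 3 probe sets were alike, with correlations over the 10 arrays of 0.940 to 0.982.

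Prom1, which encodes the membrane glycoprotein CD133, was the surface gene with the clearest separation. It was at 2.00 and 1.32 in CD24medCD49f-/low, 2.18 and 1.95 in CD24highCD49fmed, -2.49 and -0.39 in CD24medCD49fmed, -2.16 and 0.14 in the Thy-1+ fraction, and -2.09 and -0.46 in the Thy-1- fraction. In each basal population, 1 array was at or below -2.09 and the other at or above -0.46. The difference was 3.11 ± 0.47, or 8.61-fold (limma adjusted p = 1.38e-05).

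Ptger3, the prostaglandin E2 receptor EP3, ranked the populations differently. It was at -0.27 and -0.74 in CD24medCD49f-/low, 1.02 and 2.48 in CD24highCD49fmed, -1.33 and 1.56 in CD24medCD49fmed, -1.52 and 1.62 in the Thy-1+ fraction, and -1.97 and -0.84 in the Thy-1- fraction. CD24medCD49f-/low, a luminal gate, ranked below 2 of the 3 basal populations in its mean. The luminal minus basal difference was 1.04 ± 0.56 (95% interval -0.12 to 2.19, limma adjusted p = 0.0933). It was called without CD24highCD49fmed replicate 1 (1.40, adjusted p = 0.0353), without CD24medCD49fmed replicate 3 (1.52, adjusted p = 0.00734) or leaving out Thy-1+ replicate 2 (1.56, adjusted p = 0.0265).

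Stc2, which encodes the secreted glycoprotein stanniocalcin 2, closed the list with a clear separation. It was at 1.29 and 1.97 in CD24medCD49f-/low, 1.24 and 1.32 in CD24highCD49fmed, -2.50 and -0.26 in CD24medCD49fmed, -1.18 and 0.37 in the Thy-1+ fraction, and -1.16 and -1.09 in the Thy-1- fraction. All luminal arrays were at 1.24 or above, and the highest basal array was at 0.37. The difference was 2.42 ± 0.42, or 5.37-fold (limma adjusted p = 5.33e-05), and the 3 probe sets gave 2.19, 2.25 and 2.84.

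Each luminal population was then set against the basal populations on its own. The 2 comparisons share the 6 basal arrays, so their agreement is not independent. In CD24medCD49f-/low, 5 of 9 members were called higher (18.3% of features, 536 higher and 806 lower, which became 865 and 655 with array medians set to 0 and 860 and 655 with quantile normalisation), and in CD24highCD49fmed 6 of 9 (44.0% of features). Foxa1, Prom1, Stc2, Pgr and Myb were called in both. Foxa1 was higher by 3.14 ± 0.71 in CD24medCD49f-/low (limma adjusted p = 0.00166) and by 3.36 ± 0.71 in CD24highCD49fmed (adjusted p = 5.66e-04). Prom1 was higher by 2.90 ± 0.60 and 3.31 ± 0.60, and Pgr by 2.41 ± 0.45 and 2.17 ± 0.45. Both arrays of CD24medCD49f-/low were above all basal arrays for 6 members (24.1% of features), and both arrays of CD24highCD49fmed for 6 (44.5% of features), in each case the genes Foxa1, Pgr, Prom1, Tbx3, Myb and Stc2.

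Ptger3 was called in CD24highCD49fmed, with a difference of 2.16 ± 0.70 (limma adjusted p = 0.00963), and had a difference of -0.09 ± 0.70 in CD24medCD49f-/low (adjusted p = 0.907). The first call was lost without CD24highCD49fmed replicate 2 (1.44, adjusted p = 0.132), without replicate 1 of the Thy-1+ fraction (1.64, adjusted p = 0.0538) or of the Thy-1- fraction (1.98, adjusted p = 0.0711), and with quantile normalisation (1.88, adjusted p = 0.0804) or robust moderation (adjusted p = 0.0704). Tbx3 missed the threshold on both sides, at 1.03 ± 0.44 (adjusted p = 0.0586) and 0.89 ± 0.44 (adjusted p = 0.0713). It was called in CD24medCD49f-/low with array medians set to 0 (1.31, adjusted p = 0.0130), with quantile normalisation (1.21, adjusted p = 0.0189) and in 1 of its probe sets alone (1.08, adjusted p = 0.0441). In CD24highCD49fmed it was called with array weights (adjusted p = 0.00808), with only the arrays compared (adjusted p = 0.0334) and in 1 probe set alone (1.06, adjusted p = 0.0344). Without CD24medCD49f-/low replicate 1, 8 members were called in CD24medCD49f-/low, where 439 of the 2932 features were called higher, the added ones being Cited1 (3.03), Tbx3 (1.45) and Xbp1 (1.74).

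**Figure D2:**
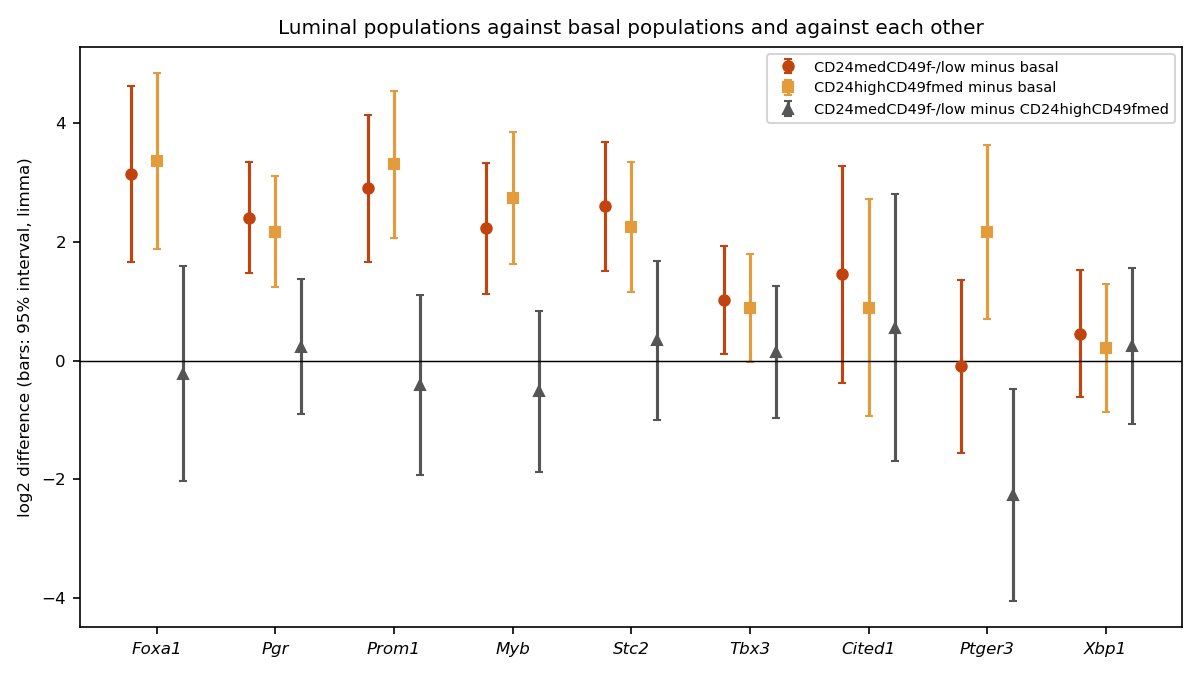
Log2 difference (y axis) of each member (x axis) for CD24medCD49f-/low minus basal (circles), CD24highCD49fmed minus basal (squares) and CD24medCD49f-/low minus CD24highCD49fmed (triangles), with 95% intervals from limma as bars. For Foxa1, Pgr, Prom1, Myb and Stc2 both luminal intervals lie above 0, and only for Ptger3 does the interval between the luminal gates, -4.05 to -0.47, leave out 0.

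A direct comparison of the luminal gates asked whether the genes differ between CD24medCD49f-/low and CD24highCD49fmed, the gate in which the study places luminal progenitors. Limma called 0 of 9 members, where 0.136% of features were called higher in CD24medCD49f-/low and 6 were called in all. At an unadjusted p under 0.05 there were 451 features, with 1 member among them, Ptger3. At its threshold of 0.01, rank products called 233 of the 2932 features, with Ptger3 the only member. Ptger3 differed by -2.26 ± 0.86 (limma adjusted p = 0.238), with both arrays of CD24highCD49fmed above both of CD24medCD49f-/low. The median of all features was -0.35 here and 0.03 with array medians set to 0. The intervals of the other members were wide. The Foxa1 difference was -0.22 (95% interval -2.03 to 1.60), that of Pgr 0.24 (-0.91 to 1.38), that of Prom1 -0.41 (-1.92 to 1.11), and that of Myb -0.52 (-1.87 to 0.84). Esr1 differed by 0.07 ± 0.58 (adjusted p = 0.954). None of the 12 luminal progenitor markers in the table was called between the gates, nor any of the 12 basal markers, although the median basal marker was at -1.496 and -1.33 in CD24medCD49f-/low and at -2.91 and -2.80 in CD24highCD49fmed. The part of these markers in the Ptger3 difference was not tested. Without CD24medCD49f-/low replicate 1 or 2, the features called numbered 295 and 118, with none of the members among them.

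Within the basal compartment, the Thy-1+ and Thy-1- fractions of CD24medCD49fhigh were compared. Limma called 0 of 9 members and 0.0682% of features, and 74 features and 0 members had an unadjusted p under 0.05. Rank products, at its threshold of 0.01, called 183 of the 2932 features, with 2 members among them, Cited1 and Ptger3. The median difference of all features was 0.15, and -0.02 with array medians set to 0. All 9 differences of the members were above 0, from 0.16 for Tbx3 to 1.68 ± 1.08 for Cited1 (95% interval -0.56 to 3.92, limma adjusted p = 0.999) and 1.46 ± 0.86 for Ptger3. Without Thy-1+ replicate 2, 7 of the 9 were below 0, among them Prom1 at -0.89, Foxa1 at -0.56 and Ptger3 at -0.12. For CD24medCD49fmed against both fractions of CD24medCD49fhigh, limma called 0 members and 0.0341% of features, 52 features and 0 members had an unadjusted p under 0.05, and the members' median difference was -0.28 (0.04 with quantile normalisation).

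The spread between the 2 arrays of a population was then examined, because the basal values above often came in pairs that lay far apart. In CD24medCD49fmed the members' median gap was 2.10, against 0.42 for all features, and in the Thy-1+ fraction it was 1.96 against 0.54. The Thy-1- fraction had 0.86 against 0.49. In the luminal gates the members' median gap was below that of all features, at 0.67 against 0.74 in CD24medCD49f-/low and 0.23 against 0.31 in CD24highCD49fmed, although Cited1 and Xbp1 had gaps of 3.15 and 2.56 in CD24medCD49f-/low. Pgr and Myb, with gaps of 0.06 and 0.05 in CD24highCD49fmed, had gaps of 1.16 and 1.87 in CD24medCD49fmed.

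**Figure D3:**
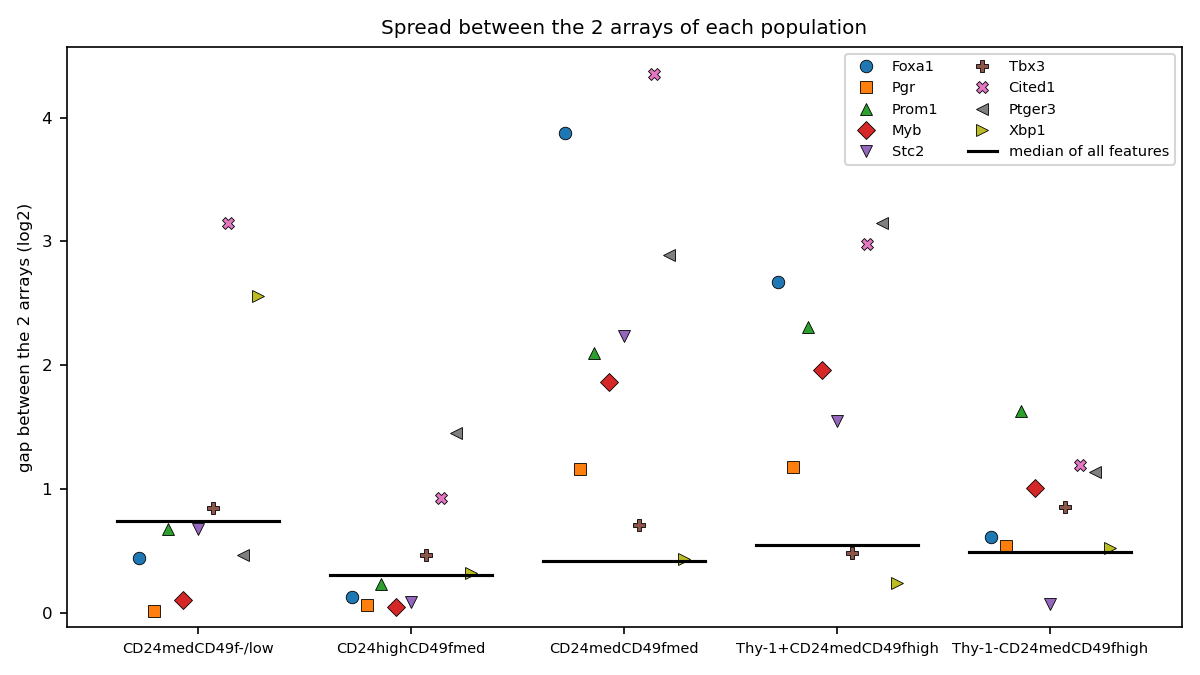
Absolute log2 gap between the 2 arrays of each population (y axis) for the 9 members, by population (x axis), with the median gap of all 2932 features as a line. In CD24medCD49fmed the gaps of Cited1 (4.35) and Foxa1 (3.87) stand far above the line at 0.42, and in CD24highCD49fmed most members lie near or under the line.

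The gap of Cited1 in CD24medCD49fmed, 4.35, was the largest of all 2932 features, and only 2 features had a larger gap than Foxa1, at 3.87. Ptger3, at 2.89, was exceeded by 17 features, Stc2 by 36, Prom1 by 39 and Myb by 60. In the Thy-1+ fraction, the gap of Ptger3, 3.15, was exceeded by 5 features, that of Cited1 by 12 and that of Foxa1 by 21. Tbx3 and Xbp1 did not share this spread, with gaps of 0.70 and 0.43 in CD24medCD49fmed and 0.49 and 0.24 in the Thy-1+ fraction.

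The gaps ran the same way for the whole list. All 9 members were higher in CD24medCD49fmed replicate 3 than in replicate 2, as were 49.6% of all features, and all 9 were higher in Thy-1+ replicate 2 than in replicate 1, as were 38.5% of all features. All 9 were also higher in Thy-1- replicate 2 than in replicate 1, by a median of 0.86, as were 74% of all features and 89% of those called higher in luminal arrays, which had a median of 0.63. For 7 of the 9, CD24medCD49fmed replicate 3 and Thy-1+ replicate 2 were the 2 highest of the 6 basal arrays. This was so for 9.69% of all features and 16.9% of those called higher in luminal arrays. The exceptions were Pgr and Tbx3, for which Thy-1- replicate 2 took the place of CD24medCD49fmed replicate 3. The features called higher in luminal arrays as a whole, which number 1210, had a median shift of 0.04 between the CD24medCD49fmed arrays and 0.22 between the Thy-1+ arrays. The luminal progenitor markers had 0.67 and 0.30.

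Other markers moved with these arrays. The 13 other hormone sensing genes had a median shift of 0.55 in CD24medCD49fmed, with 11 of 13 higher in replicate 3, and of 0.29 in the Thy-1+ fraction, with 9 of 13 higher in replicate 2. Krt18, a luminal keratin, was at -1.92 and 0.33 in CD24medCD49fmed and at -1.02 and 0.60 in the Thy-1+ fraction. Krt19, another luminal keratin, was at -1.89 and 1.45, and at -0.86 and 1.56. Krt19 did not separate the gates here, with a luminal minus basal difference of 0.63 ± 0.62 (limma adjusted p = 0.344). It was at -0.99 and 1.75 in CD24medCD49f-/low and at -0.33 and 1.08 in CD24highCD49fmed. Both keratins are among the 13 genes counted above. The median of the 12 basal markers was 1.64 and 1.39 in the CD24medCD49fmed arrays, with 11 of 12 lower in replicate 3, and 1.83 and 0.94 in the Thy-1+ arrays, with all 12 lower in replicate 2. All 7 milk genes were higher in CD24medCD49fmed replicate 3, by a median of 1.28, and 1 of 7 was higher in Thy-1+ replicate 2, with a median shift of -0.78. Thy-1+ replicate 2 also had the smallest standard deviation over all features, 0.50, where the other arrays had 0.63 to 1.25. The part of these markers in the members' spread was not tested. With both arrays left out, a setting chosen after the data were seen, 8 members were called between luminal and basal arrays, where 34.5% of features were called higher, adding Cited1 (2.40, limma adjusted p = 0.0126) and Ptger3 (2.04, adjusted p = 0.00432).

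The members were also compared with each other over the 10 arrays, as a description of points that share arrays, normalisation and populations. Foxa1, Pgr, Prom1, Myb and Stc2 had pairwise Pearson correlations of 0.93 to 0.99 with each other and of 0.95 to 0.98 with Esr1. With the luminal keratin Krt18 these genes were at 0.89 to 0.96, so high values were not particular to the hormone receptor. Tbx3 was at 0.84 to 0.90 with these 5. Cited1 and Ptger3 were further off, at 0.58 to 0.73 and 0.49 to 0.69 with the 5, and Xbp1 was at 0.25 to 0.45.

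**Figure D4:**
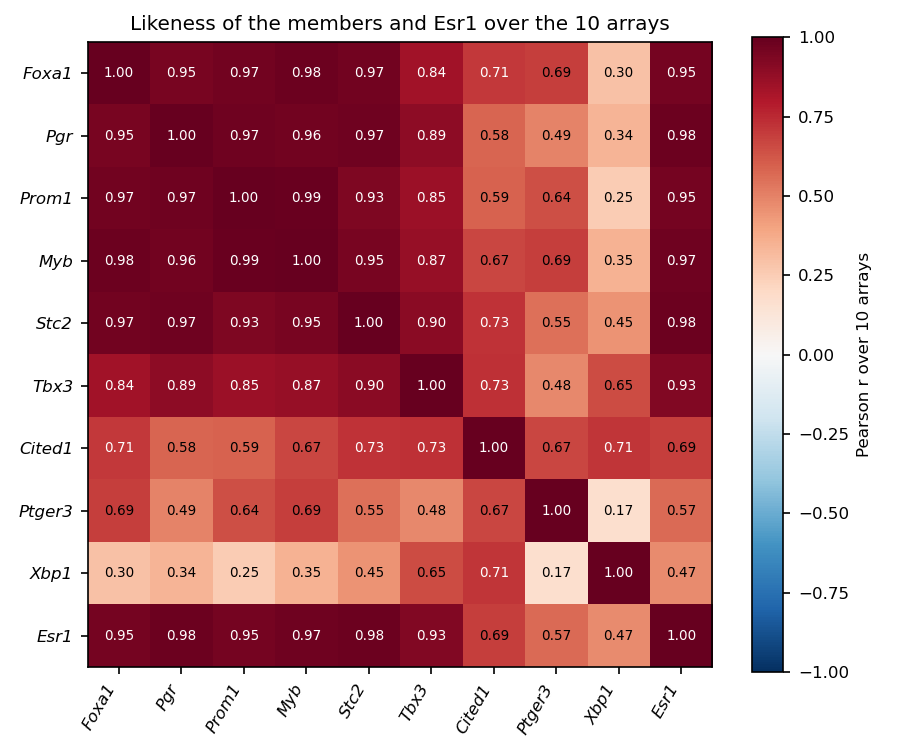
Pearson correlation over the 10 arrays between the 9 members and Esr1 (both axes), with red for positive values. Foxa1, Pgr, Prom1, Myb, Stc2 and Esr1 form a block at 0.93 or above, and Xbp1 has its highest value, 0.71, with Cited1.

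Among all named genes, the most like each member were found by the same measure (n = 10 arrays). Stc2 was most like Esr1 (0.98), and Prom1 was like Cadps2 (0.996), a vesicle secretion factor, with the member Myb next (0.99). Foxa1 was most like Tmem30b (0.998), a subunit of phospholipid flippases, and Pgr like Tmprss2 (0.99), a membrane serine protease. For Myb the leading genes were Tlcd4 (0.99), Alcam, an adhesion molecule (0.99), and Atp1b1, a sodium pump subunit (0.99). Cited1 was most like the keratins Krt7 (0.995) and Krt19 (0.97), with the actin-binding Vill next (0.96). Krt7 was at -1.85 and 1.38 in CD24medCD49fmed and at -0.23 and 2.14 in CD24medCD49f-/low, so its arrays split the way those of Cited1 did. Tbx3 was most like Tjp3, a tight junction protein (0.97), and Ptger3 like Sprr1a, a cornified envelope protein (0.93). Xbp1 was most like Stat5a, a transcription factor of prolactin signalling (0.95), and Sel1l, a component of endoplasmic reticulum protein degradation (0.94). Stat5a was at -0.65 and 1.68 in CD24medCD49f-/low, the same split as Xbp1.

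Of a wider list of 26 hormone sensing genes beside the members, 13 were in the table. Between luminal and basal arrays 6 of them were called higher (41.3% of features) and 4 lower, and their median difference was 0.77. Those higher included Esr1, Tnfsf11 (RANKL, the paracrine mediator of progesterone, 1.92 ± 0.43), Gata3 (1.45 ± 0.32) and Krt18 (1.44 ± 0.43). Tnfsf11 was at 3.50 in CD24medCD49f-/low replicate 2 and at 0.58 or below in the other 9 arrays. Those lower were Igfbp4, a binding protein of insulin-like growth factors (-3.26 ± 0.32), the chemokine Cxcl12 (-2.76 ± 0.33), the transcription factor Tfap2c (-1.63 ± 0.35) and the receptor Igf1r (-1.34 ± 0.34).

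In the prostaglandin list, 5 of 15 genes were in the table, Ptger3 included. Ptger2, another prostaglandin E2 receptor, was higher over the 4 luminal arrays (0.94 ± 0.35, limma adjusted p = 0.0194). Hpgd, which inactivates prostaglandins, was higher as well (0.92 ± 0.34, adjusted p = 0.0178). Ptger2 was called in CD24highCD49fmed against basal (1.56, limma adjusted p = 0.00398) but not in CD24medCD49f-/low (0.31, adjusted p = 0.536). Hpgd was likewise called in CD24highCD49fmed (1.32, adjusted p = 0.00898) but not in CD24medCD49f-/low (0.52, adjusted p = 0.289). Between luminal and basal arrays, 41.3% of all 2932 features were called higher and 1017 lower. Ptger4, a further receptor, was lower (-1.11 ± 0.35), as was Ptgs2, the inducible cyclooxygenase (-1.14 ± 0.34). Ptger4 was called lower in CD24medCD49f-/low against basal (-1.36, limma adjusted p = 0.0166) but not in CD24highCD49fmed (-0.85, adjusted p = 0.0813). Ptgs2 was called lower in both gates. The receptors thus differed in direction. Of 14 relatives of the members by gene family, 4 were in the table, and Tbx2, the close relative of Tbx3, was lower in luminal arrays (-1.59 ± 0.35, adjusted p = 5.88e-04). The Prom1 relative Prom2 had a difference of -0.17 ± 0.37. Of 19 unfolded protein response targets of Xbp1, only Canx and Calr, both chaperones of the endoplasmic reticulum, were in the table. Canx was higher over the luminal arrays (0.98 ± 0.32, adjusted p = 0.0107) and Calr lower (-1.45 ± 0.48, adjusted p = 0.01002). Canx was called in CD24highCD49fmed against basal (1.41, limma adjusted p = 0.00508) but not in CD24medCD49f-/low (0.55, adjusted p = 0.251). Calr was called lower in CD24medCD49f-/low (-1.62, adjusted p = 0.0336) but not in CD24highCD49fmed (-1.28, adjusted p = 0.0591). Calr was at -2.82 and 0.73 in CD24medCD49f-/low and at 0.27 to 0.996 in the basal arrays. Replicate 2 of CD24medCD49f-/low was thus within the basal range.

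Markers of other cells that could enter the gates were looked up as well. Genes absent from the table may have been removed by the authors' filter, so absence does not show that such cells were few. All 10 endothelial markers were absent from the table and 1 of 12 leukocyte markers, Lcp1, was in it, higher in luminal arrays by 1.76 ± 0.38. All 7 fibroblast markers in the table, of 10, were called lower in luminal arrays, as were 1017 of the 2932 features. Their medians per array were -1.75 to -1.001 in the luminal and -0.11 to 1.98 in the basal arrays. By population, the basal medians were 1.98 and 1.14 in the Thy-1+ fraction, -0.07 and -0.11 in the Thy-1- fraction and 1.20 and 1.27 in CD24medCD49fmed. Between the Thy-1 fractions 1 of the 7 was called, higher in Thy-1+. Of 7 milk genes in the table, 4 were called higher in luminal arrays, where 41.3% of features were called higher. The part of these markers in the members' differences was not tested.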

How the data were processed

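The authors deposited log2 intensities per probe set, normalised by RMA over all arrays (the labels name RMA and GCRMA, with no version). They had removed probe sets of low level or with a range under 4-fold, and set the mean of each of the rest to 0. Intensity over background and probe sets removed by that filter cannot be read from them. Of 3663 probe sets, 3291 had 1 symbol, 75 several and 297 none in the annotation; those of 1 symbol were averaged per gene and the 372 others tested alone. Population means were fitted over all 10 arrays together (lmFit and eBayes of limma 3.58.1, R 4.3.3). Tests were two-sided, adjusted by Benjamini-Hochberg over 2932 features within each of 6 comparisons, and called at an adjusted p under 0.05. Checked on simulated data, the fit returned the differences put in. The number of arrays limits the precision. Rank products, the test of the study, were run by a gamma approximation at p under 0.01 for 2 comparisons. The members, the gene lists and the tests were chosen with earlier results of these data known, and some members also belong to gene sets made by the study in part from these arrays, so no list is independent evidence. The genes named were all 9 members, the 3 genes with the highest Pearson correlation with each (of which some are not printed), up to 4 called genes per list, all hormone receptors in the table and the sort genes; Gata3, Krt18, Krt19, Tfap2c, Igf1r, Itgb3, Sox10 and Prom2 were named beside that rule after their values were seen. The alternatives tried were probe sets tested alone, quantile normalisation, array medians set to 0, a replicate block, robust moderation, array weights, only the arrays compared, a minimum log2 difference of 1 and each array left out. Promoters came from RefSeq.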

Additional observations from a re-analysis of the deposited data

How the results depend on the processing

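With 2 arrays a population, intervals are wide, and where an array is left out the lone one is assumed to vary like the other groups. Foxa1, Pgr, Prom1, Myb and Stc2 kept their calls against basal arrays under all alternatives run. The cause of the changes below was not tested. With each array left out, features called between the luminal gates numbered 0 to 295 (6 with all arrays), in CD24highCD49fmed against basal 1138 to 2403, between the Thy-1 fractions 0 to 11, between CD24medCD49fmed and CD24medCD49fhigh 0 to 1, and members called in CD24medCD49f-/low against basal 5 to 8. Members whose sign turned were not called with all arrays present: Xbp1 in luminal against basal (-0.30 to 0.98, called at the upper end without CD24medCD49f-/low replicate 1); between the luminal gates Foxa1 (-0.44 to 0.0048), Cited1 (-1.02 to 2.13), Tbx3 (-0.28 to 0.56) and Xbp1 (-1.04 to 1.52); in CD24medCD49f-/low against basal Cited1 (-0.12 to 3.03), Ptger3 (-0.62 to 0.43) and Xbp1 (-0.82 to 1.74), of which Cited1 and Xbp1 were called at the upper end; and between the Thy-1 fractions Foxa1 (-0.56 to 2.11), Pgr (-0.34 to 0.84), Prom1 (-0.89 to 1.42), Tbx3 (-0.27 to 0.59), Ptger3 (-0.12 to 3.03), Myb (-0.43 to 1.53) and Stc2 (-0.050 to 1.4998). With CD24medCD49fmed replicate 3 and Thy-1+ replicate 2 both left out, 6 of these 7 Thy-1 differences were at the lower ends given, Tbx3 was -0.081, Ptger3 in CD24medCD49f-/low against basal was 0.91, and 0 features were called between the luminal gates and between CD24medCD49fmed and CD24medCD49fhigh.

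With array medians set to 0, 15 features were called between the luminal gates and 1 between the Thy-1 fractions, Foxa1 between the luminal gates was 0.16, Ptger3 in CD24medCD49f-/low against basal 0.18 and Tbx3 between the Thy-1 fractions -0.010. With quantile normalisation the counts were 0 and 1, with 0 for CD24medCD49fmed against CD24medCD49fhigh, and the Foxa1 and Ptger3 values were 0.048 and 0.19. Probe sets tested alone gave 11 between the luminal gates and 1 between the Thy-1 fractions, and array weights, which are equal within a population of 2, gave 0 between the luminal gates, 513 in CD24medCD49f-/low against basal (1342 without weights) and 2 for CD24medCD49fmed against CD24medCD49fhigh. With only the arrays compared, 0 features were called between the luminal gates and 13 between the Thy-1 fractions. Rank products called 233 features, 1 member among them, between the luminal gates and 183, with 2 members, between the Thy-1 fractions. The gamma approximation puts the number by chance at 58.6, but it treats pairs of arrays that share an array as independent. The number expected by chance is therefore not known.

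Whether the replicate numbers pair the samples is not known. The difference of replicates 1 and 2 correlated at 0.52 between the luminal gates and at 0.30 between the Thy-1 fractions. Between a luminal gate and a Thy-1 fraction the correlation was -0.20 to 0.08, so these values do not settle it. With the number as a replicate block, 33 features and 1 member (Ptger3) were called between the luminal gates, 9 features and 0 members between the Thy-1 fractions and 19 features and 2 members for CD24medCD49fmed, which then rests on its replicate 2, against CD24medCD49fhigh. No other population has a replicate 3, so CD24medCD49fmed rests on its replicate 2 in each comparison with basal arrays below as well. The replicate 3 array that is thereby set aside had the highest basal value of Cited1, 1.87, and was at 1.56 for Ptger3. Ptger3 in CD24medCD49f-/low against basal was 0.61. Called members numbered 8 between luminal and basal arrays, where 38.3% of features were called higher, adding Cited1 (2.24, limma adjusted p = 5.94e-07) and Ptger3 (1.74, adjusted p = 1.29e-04). They numbered 7 in CD24medCD49f-/low, against 17.1% of features, adding Cited1 (2.52, adjusted p = 1.20e-05) and Tbx3 (1.26, adjusted p = 0.0376), and 8 in CD24highCD49fmed, against 44.0%, adding Cited1 (1.97, adjusted p = 5.16e-04) and Tbx3 (1.12, adjusted p = 0.0420).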
